A study of Mus musculus with 12 samples.

Results

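The transcriptome described here is that of regulatory T (Treg) cells in which the distal Foxp3 enhancer CNS4 was flanked by loxP sites and not deleted. Its members are the 6 floxed libraries of 12 in the series, treated as 1 condition, and no knockout library was used. Of these, 3 libraries came from male C57BL/6 mice whose genotype label reads CNS4 floxed (wild type), numbered 1, 2 and 4, and 3 came from female C57BL/6 mice labelled CNS4 floxed heterozygotes, numbered 1, 2 and 3. The labels did not give the other allele of the heterozygotes, an agent or treatment, or an age beyond saying that the mice were matched for age and sex. Cells had been sorted by flow cytometry as CD4+Foxp3+, and the letters Thy in each title together with the series title place them in the thymus, an organ that the other labels did not name. Nothing stated that the libraries were made from separate animals, so the spread between libraries may be technical. The questions put to these libraries were which genes stood highest in enhancer-sufficient Treg cells and how much each gene varied from library to library.

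Treg cells are CD4 T cells that restrain immune responses, and the transcription factor Foxp3 defines them. In the thymus, developing T cells that receive strong T cell receptor signals acquire the high-affinity interleukin-2 receptor and receptors of the tumour necrosis factor family, and interleukin-2 acting through STAT5 then favours the induction of Foxp3. Distal elements such as CNS4 lie outside the Foxp3 coding region and help the gene switch on. Mature thymic Treg cells leave for the periphery, and Treg cells that return from it can be found beside newly formed ones.

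Sequences just upstream of the 5 Treg markers are shown first because the markers anchor the description and because the density of CG dinucleotides in such windows is compared with the spread between libraries further on. Each window holds the 100 bases before the annotated start, read 5′ to 3′ on the plus strand, with every CG dinucleotide in capitals, and all come from RefSeq on build GRCm38.p6. The Foxp3 window is chrX:7579576-7579675, that of Il2ra chr2:11642692-11642791, that of Ctla4 chr1:60908925-60909024, that of Tnfrsf18 chr4:156026222-156026321 and that of Tnfrsf4 chr4:156013595-156013694.
Foxp3: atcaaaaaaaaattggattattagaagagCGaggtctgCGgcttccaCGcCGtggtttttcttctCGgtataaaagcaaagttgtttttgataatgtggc
Il2ra: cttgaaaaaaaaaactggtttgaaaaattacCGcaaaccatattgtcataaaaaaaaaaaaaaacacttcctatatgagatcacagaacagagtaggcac
Ctla4: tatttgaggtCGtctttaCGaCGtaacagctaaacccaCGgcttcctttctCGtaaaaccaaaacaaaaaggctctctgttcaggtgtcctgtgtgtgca
Tnfrsf18: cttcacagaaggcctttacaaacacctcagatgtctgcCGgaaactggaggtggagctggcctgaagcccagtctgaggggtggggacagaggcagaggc
Tnfrsf4: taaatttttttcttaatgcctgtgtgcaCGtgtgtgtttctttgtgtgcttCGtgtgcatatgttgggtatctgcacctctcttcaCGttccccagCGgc
CG, which reads the same on both strands, occurred 5 times upstream of Foxp3 and of Ctla4, 4 times upstream of Tnfrsf4 and 1 time upstream of Il2ra and of Tnfrsf18. Over 4739 expressed plus-strand genes with such a window the median was 8, and over all 27025 windows it was 3, with at least 1 CG in 78.9% of them.

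Reads in genes ranged from 12940588 to 16154017 per library, or 31.5 to 33.8% of all reads. Levels are given as CPM (counts scaled to a common library size and adjusted for composition). No pair of libraries could be 1 library deposited again: the chi-square of their counts was 5.82 to 170 times its degrees of freedom. Plus-strand genes held 96.4 to 97.0% of the protein-coding counts, so minus-strand genes, Cd4 among them, were not ranked or read for level, and every rank below is among 9533 plus-strand protein-coding genes with reads. The label of sex was met in all 6 libraries. The Y-linked genes Eif2s3y and Kdm5d lay between 199 and 376 CPM in the 3 male libraries and between 0.0756 and 0.273 CPM in the 3 female ones, while Tsix, an RNA of the X inactivation centre, lay between 0.138 and 0.343 CPM in males and between 134 and 163 CPM in females. Male floxed library 4 stood apart from the others in dendritic cell and granulocyte transcripts. Macrophage transcripts were highest in male floxed library 4 and female floxed library 1, with female floxed library 3 next. The spread of gene lists is given with and without male floxed library 4 and female floxed library 1 where it rests on them.

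All 5 Treg markers, of which the sort label names only Foxp3, were among the 100 highest plus-strand genes per length of transcript. Together they held 9395 ± 540 CPM (SD, n = 6). Tnfrsf4, which encodes the costimulatory receptor OX40, had 1751 CPM in the lowest library, a median of 2015 and 2177 in the highest. Tnfrsf18, which encodes the receptor GITR, had 1577, 1745 and 1871 CPM. Male floxed library 1 was lowest for Tnfrsf4 and male floxed library 4 for Tnfrsf18, while female floxed library 3 was highest for both. Foxp3 itself had 2217, 2629 and 2663 CPM, with 5 libraries at 2543 or more and male floxed library 4 alone below them. Il2ra, the alpha chain that gives the interleukin-2 receptor its high affinity, had 1871, 2274 and 2372 CPM, with male floxed library 2 lowest. Ctla4, an inhibitory receptor that binds and removes costimulatory ligands, had 701, 869 and 1028 CPM, lowest in male floxed library 4 and highest in female floxed libraries 1 and 2.

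Per kilobase of exon (CPM/kb), the scale on which levels of different genes can be compared, the order of the markers differed from that of their CPM. Tnfrsf4 stood at 1468 ± 109 CPM/kb (SD, n = 6) and rank 6, with rank 6 or 7 in every library. Tnfrsf18 stood at 1134 ± 75.7 CPM/kb and rank 9, Foxp3 at 559 ± 37.7 CPM/kb and rank 32, Il2ra at 388 ± 33.6 CPM/kb and rank 53, and Ctla4 at 381 ± 53.7 CPM/kb and rank 54. Across libraries the rank of Foxp3 ran from 30 to 43, that of Il2ra from 47 to 73 and that of Ctla4 from 43 to 87. Of the 10 pairs of markers, 9 stood in the same order in 6 of 6 libraries. Each had p = 0.0312 in a two-sided exact sign-flip permutation test, the smallest p that 6 libraries allow. After Benjamini-Hochberg adjustment over the 10 pairs the p of this test was 0.0347. The test takes the libraries as independent, which the labels did not state. The smallest of those 9 differences was that of Tnfrsf4 over Tnfrsf18, 0.37 ± 0.08 on the log2 scale (SD, n = 6). Il2ra and Ctla4 could not be ordered: their mean log2 difference was 0.03 ± 0.18 (SD, n = 6), Il2ra was higher in 3 of 6 libraries, and the exact permutation p was 0.719. On CPM without length Foxp3 and not Tnfrsf4 led the 5, so the order depends on the division by length. Exons of Foxp3 and Tnfrsf18 overlap exons of genes on the other strand, over 856 and 414 bases, and reads in that overlap cannot be assigned with the strand setting unknown.

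**Figure D1:**
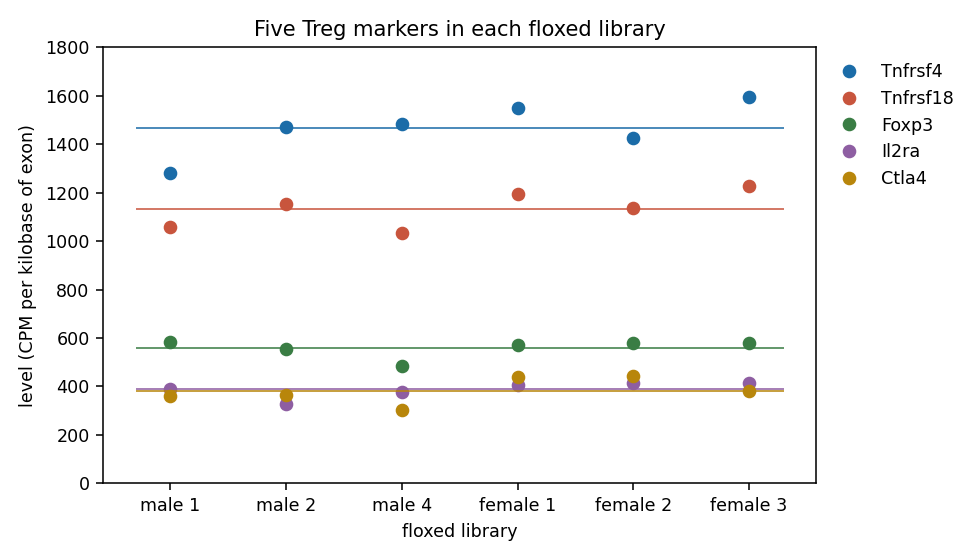
Level of the 5 Treg markers (CPM per kilobase of exon, vertical axis) in each of the 6 floxed libraries (horizontal axis); each point is 1 library and each line the mean over the 6. Tnfrsf4, Tnfrsf18 and Foxp3 keep their order in all 6 libraries, while the points of Il2ra and Ctla4 change places.

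With all 6 libraries Ctla4 had the widest spread of the 5 markers. The coefficient of variation (CV, the SD as a percent of the mean of CPM over the 6 libraries) was 6.67% for Tnfrsf18, 6.76% for Foxp3, 7.43% for Tnfrsf4, 8.67% for Il2ra and 14.1% for Ctla4, against a median of 8.88% over the 112 plus-strand genes above 1000 CPM and 10.3% over the 2191 genes from 100 to 1000 CPM. Without male floxed library 4 and female floxed library 1 the CV was 2.20% for Foxp3, 6.09% for Tnfrsf18, 8.94% for Tnfrsf4, 9.80% for Ctla4 and 10.7% for Il2ra, so that Ctla4 was then no longer the widest.

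The top of the ranking joined general T cell and housekeeping transcripts with the Treg receptors. B2m, the light chain shared by all class I molecules, stood first with 5807 ± 333 CPM/kb (SD, n = 6). It was followed by mt-Co1 and mt-Cytb, subunits of the mitochondrial respiratory chain, with 4205 ± 668 and 3328 ± 476 CPM/kb. H2-D1, a class I heavy chain, had 3302 ± 782 CPM/kb, and Shisa5, an endoplasmic reticulum protein, had 2332 ± 187 CPM/kb. Only after these 5 came Tnfrsf4, so that OX40 mRNA stood higher per length than any ribosomal protein or actin regulator on the plus strand. Then followed mt-Nd1 (1385 CPM/kb), Cfl1, the actin-severing protein cofilin (1225 CPM/kb), Tnfrsf18, and Rplp0, a protein of the large ribosomal subunit (999.8 CPM/kb).

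The next ranks held genes of lymphocyte function beside translation. They were Gimap4, a GTPase of the GIMAP family, at 944 CPM/kb, the GTPase-activating protein gene Arhgap45 at 904 and Rpl4 at 884. Lymphotoxin beta (Ltb) stood at 861, the lysosomal protein Laptm5 at 854, moesin (Msn) at 838 and the elongation factor Eef2 at 826. They were followed by the surface protein Ly6e at 799, the integrin beta chain Itgb2 at 754, ubiquitin B (Ubb) at 724, the CD45-associated protein Ptprcap at 723, prosaposin (Psap) at 720, calponin 2 (Cnn2) at 693 and the ATP synthase subunit Atp5a1 at 689 CPM/kb. Of these 25 genes, 20 were among the 25 highest in every library, and 71 of the 100 highest were among the 100 highest in every library. Ltb was the least even of the 25, with 385 CPM in its lowest library, a median of 1231 and 2274 in its highest. The constant segments of the T cell receptor, which are no ordinary protein-coding genes in the annotation and so were not ranked, stood at 1814 (Trac), 1581 (Trbc2) and 1183 (Trbc1) CPM/kb, with CVs of 4.31, 4.35 and 3.97%. Class I genes and ribosomal proteins share reads with near-identical copies, so their levels are uncertain.

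Expression was spread over many genes of moderate level. Among plus-strand protein-coding genes 6214 had a mean of at least 1 CPM, 4871 at least 10, 2303 at least 100 and 112 at least 1000 CPM. The 112 genes above 1000 CPM held 22.6% of plus-strand protein-coding counts, and the 2191 genes from 100 to 1000 CPM held 64.1%. The 10 genes of highest CPM held 5.75% and the 500 highest 48.0%. The 100 genes highest per length, of 9533 ranked, held 7 of the 17 plus-strand members of the Treg identity list. They also held 7 of 32 cytosolic ribosomal proteins and 7 of 11 genes of class I antigen presentation. Of the mitochondrially encoded list they held 6 of 14 genes, and of the actin cytoskeleton list 4 of 8.

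The wider list of Treg identity had 17 plus-strand members of 26 in the table, and 14 of the 17 exceeded 100 CPM in every library. For scale in this and later lists, 2303 of the 9533 plus-strand genes with reads had a mean of at least 100 CPM. The list median was 197 CPM/kb, against 13.9 CPM/kb over the 5925 plus-strand genes kept after low counts were removed. Of its other members Tnfrsf9, which encodes the costimulatory receptor 4-1BB, stood highest and above Il2ra and Ctla4 per length, with 1025 CPM in the lowest library, a median of 1328 and 1485 in the highest (484 CPM/kb). Capg, an actin-capping protein, had 571, 661 and 814 CPM (263 CPM/kb). Gpr83, an orphan receptor long used as a Treg marker, had 848, 989 and 1149 CPM (197 CPM/kb). Each of these varied less than 1.5-fold between the lowest and highest library.

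Surface molecules through which Treg cells act were of unequal level. Lrrc32, which encodes GARP, the anchor of latent transforming growth factor beta, had 499, 756 and 1449 CPM, highest in male floxed library 2 and lowest in female floxed library 1. Nt5e, the CD73 enzyme that forms adenosine, had 551, 645 and 677 CPM, whereas Entpd1, the CD39 enzyme acting before it, had 73.4, 103 and 157 CPM. The cytokine Il10 was present at 4.19, 5.13 and 9.60 CPM only. Nrp1, a coreceptor found on most thymic Treg cells, had 829, 1023 and 1188 CPM. Per length, Nt5e stood at 73.6 ± 4.98 and Entpd1 at 19.0 ± 5.37 CPM/kb (SD, n = 6), and Nt5e was higher in every library.

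T cell receptor components were high and even. Of the 13 plus-strand members, 12 exceeded 100 CPM in every library. Cd3d, a chain of the CD3 complex, had 784, 820 and 853 CPM and a CV of 3.07%, and its biological CV, the edgeR estimate of spread beyond counting error, was among the 15 smallest of the plus-strand protein-coding genes at 50 CPM or more. Lower down the pathway the spread was unequal. The kinase Fyn had 85.3, 102 and 413 CPM, with male floxed library 2 far above the other 5, and Plcg1, the phospholipase that starts calcium signalling, had 187, 229 and 487 CPM with the same library highest.

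Genes induced by T cell receptor signals were a mixed group of 13. Nr4a1, which encodes Nur77 and tracks the strength of the signal, had 1068, 1201 and 1269 CPM (335 CPM/kb), and Myc, a driver of growth, had 442, 568 and 632 CPM. Their CVs were 7.43 and 14.7%. Fos, an immediate early gene that can also answer to handling of cells, had 79.0 CPM in male floxed library 4 against 360 to 642 CPM in the other 5. Egr1, another immediate early gene, had 79.3, 125 and 440 CPM, with male floxed library 2 highest.

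The interleukin-2 pathway was represented by 7 plus-strand genes, of which Il2ra stood highest at 388 CPM/kb. Stat5a, the transcription factor the receptor activates, had 1094, 1175 and 1261 CPM and a CV of 4.79%. Cish, a target and inhibitor of the pathway, had 937, 977 and 1110 CPM, with female floxed library 1 highest. Jak3, the kinase bound to the common gamma chain, did not share their evenness: it had 272, 674 and 951 CPM, with female floxed library 1 lowest and male floxed library 1 highest. Il2rb, Il2rg and Stat5b lie on the minus strand and were not read for level.

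Receptors of the tumour necrosis factor family numbered 9 on the plus strand, and 7 of them exceeded 100 CPM in every library. After Tnfrsf4, Tnfrsf18 and Tnfrsf9 came Tnfrsf25, the receptor DR3, with 324, 416 and 442 CPM (179 CPM/kb), and the death receptor Fas with 234, 297 and 319 CPM (141 CPM/kb). Tnfrsf13b, the receptor TACI best known from B cells, had 161, 279 and 299 CPM, while the B cell gene Cd79a was at 15.5, 18.3 and 37.5 CPM. Tnfrsf10b lay lowest at 4.55 ± 1.01 CPM (SD, n = 6). The step from the first to the last member of the family thus spanned more than 3 orders of magnitude in CPM/kb, from 1468 to 0.834. Costimulatory receptors outside the family were also well expressed, with Icos at 157 ± 15.7 and Cd28 at 120 ± 15.3 CPM/kb (SD, n = 6).

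Among 12 plus-strand transcription factors that act on Foxp3, Foxp3 led per length, followed by Ets1 at 336 ± 142 and Nr4a1 at 335 ± 24.9 CPM/kb (SD, n = 6), which did not differ beyond their spread. Ets1, which binds enhancers of Foxp3 and many T cell genes, had 1760, 2321 and 4932 CPM, with male floxed libraries 2 and 1 highest at 4932 and 3638. Lef1, a factor of T cell development, had 951, 996 and 1376 CPM, and Ikzf1, which encodes Ikaros, had 301, 329 and 395 CPM. In this list 6 of 12 genes were highest in male floxed library 2 and 5 were lowest in female floxed library 1, against 27.5% and 31.7% of all kept plus-strand genes.

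Stages before and after maturation were both visible. Among genes of mature thymocytes, Gimap4 had 1239, 1801 and 1937 CPM. Male floxed library 4 was lowest and stood clear of the other 5. Genes of immature double-positive thymocytes were lower, with a list median of 16.3 CPM/kb. Cd8b1, a chain of the CD8 coreceptor, which the sort label CD4+Foxp3+ does not name, had 76.9, 108 and 138 CPM. Dntt, the terminal transferase of receptor rearrangement, had 66.1, 97.7 and 149 CPM, and the recombinase gene Rag2 had 5.49, 10.7 and 19.8 CPM. In this list 6 of the 9 genes were highest in female floxed library 1 and 3 in male floxed library 4, and 8 were lowest in male floxed library 1, against 27.2, 23.5 and 17.0% of all kept plus-strand genes. The summed level of the list had a ratio of 1.58 between the highest and lowest library, which was 1.28 without male floxed library 4 and female floxed library 1. In RNA from sorted pools, fewer cells of a type and less RNA per cell cannot be told apart.

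The list for effector and recirculating Treg cells had 22 plus-strand members, of which 20 passed the filter on low counts and 10 exceeded 100 CPM in every library. Ccr8, a chemokine receptor of effector Treg cells, had 307, 371 and 394 CPM (311 CPM/kb), and S100a10, a calcium-binding partner of annexin, had 325, 364 and 460 CPM (306 CPM/kb). Lgals1, the lectin galectin 1, had 186, 208 and 281 CPM. The chemokine receptor Ccr6, used to mark recirculating Treg cells, had 226, 235 and 281 CPM, and Cxcr6, a receptor of tissue-homing T cells, only 12.3, 13.9 and 21.8 CPM. Of the 20 genes, 14 were highest in male floxed library 4, against 23.5% of all kept plus-strand genes. The summed level of the list was 3257 CPM in the lowest library and 4388 in the highest, a ratio of 1.35 that was 1.16 without male floxed library 4 and female floxed library 1.

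Cell cycle genes were for the most part highest in the same library. The S phase list had 10 plus-strand genes, led by the replication helicase subunit Mcm5 at 91.4 ± 10.5 CPM/kb (SD, n = 6), and 7 of them were highest in male floxed library 4. All 10 genes of G2 and M phase were highest in male floxed library 4 and lowest in male floxed library 1, against 23.5 and 17.0% of all kept plus-strand genes. The summed level of the S phase list had a ratio of 1.40 between the highest and lowest library, which was 1.20 without male floxed library 4 and female floxed library 1. Ube2c, a ubiquitin-conjugating enzyme of mitotic exit, had 28.2, 41.6 and 104 CPM, and the mitotic kinase Plk1 had 35.7, 47.5 and 91.7 CPM. Hmgb2, the highest of the list at 64.2 CPM/kb, had 162, 192 and 240 CPM. The summed level of G2 and M genes ran from 610 to 1253 CPM, a ratio of 2.05 that was 1.39 without the same pair of libraries.

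Interferon response genes were expressed throughout, with a spread near that of genes of like level. Of the 15 plus-strand members, 14 exceeded 100 CPM in every library. None had a biological CV above the median of 20.9% over all kept plus-strand genes, many of which are of lower level. The list's median biological CV was 14.4%, against 15.6% over plus-strand genes from 100 to 1000 CPM. Igtp, an immunity-related GTPase, had 646, 753 and 844 CPM, and Irf1, a transcription factor of the response, had 695, 741 and 847 CPM. Rtp4, an interferon-induced chaperone, had 220, 229 and 239 CPM and a CV of 2.97%. The widest members were Gbp2, a guanylate-binding protein, and Ifit3, an RNA-binding inhibitor of viral translation, with CVs of 15.6 and 14.8%.

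Several other lists held both even and uneven genes. Cytosolic ribosomal proteins had 32 plus-strand members with a median CV of 8.57%, and in 18 of them male floxed library 4 was highest, against 23.5% of all kept plus-strand genes. Atp5a1 and Atp5b, the alpha and beta subunits of the same ATP synthase head, had CVs of 3.61% and 24.0%, and Atp5b had 1223 CPM in female floxed library 1 against 2460 to 2745 CPM in the other 5. Rela and Nfkb2, DNA-binding subunits of NF-kB, had CVs of 4.52% and 47.1%, with 170, 439 and 789 CPM for Nfkb2. Among the GIMAP GTPases, Gimap9 had a CV of 3.58% and Gimap1 one of 64.1%, with 117, 290 and 765 CPM for Gimap1. In class I presentation Tapbp, the tapasin that loads peptides, had a CV of 3.83%, and Pdia3, its disulfide isomerase partner, had 364 CPM in female floxed library 1 against 798 to 1353 CPM in the others. In Atp5b, Nfkb2, Gimap1, Pdia3, Jak3 and H2-D1 alike, female floxed library 1 was lowest, and the cause was not tested. These genes are grouped by that value, and the same library was lowest for 31.7% of all kept plus-strand genes.

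Remaining lists covered metabolism, survival and the genes of other T helper fates. Glycolytic genes numbered 8 on the plus strand, led by lactate dehydrogenase A (Ldha) with 1801, 2167 and 2341 CPM (647 CPM/kb) and pyruvate kinase (Pkm) with 1321, 1485 and 1560 CPM (291 CPM/kb). Cholesterol synthesis was lower, with a median of 8.44 CPM/kb over 12 genes and 3 of them above 100 CPM in every library. All 9 mitochondrially encoded genes that passed the filter were highest in female floxed library 1, against 27.2% of all kept plus-strand genes. Their summed level ran from 16000 to 25246 CPM, a ratio of 1.58 that was 1.20 without male floxed library 4 and female floxed library 1. In the BCL2 family the proapoptotic Bcl2l11, which encodes Bim and removes strongly self-reactive thymocytes, had 199, 252 and 304 CPM. Of the genes listed as low in Treg cells, 7 lie on the plus strand and 1 of them, Themis, a signalling protein of T cell development, exceeded 100 CPM in every library, with 266, 360 and 430 CPM. The effector cytokine Ifng had 0.550, 0.984 and 1.66 CPM, and Il17a had 0 in 3 libraries and at most 0.305 CPM. Cd40lg, the ligand by which helper T cells activate B cells, had 31.0, 33.6 and 40.2 CPM. Per length Themis stood at 29.6 and Cd40lg at 27.5 CPM/kb, both above the median of 13.9 CPM/kb over kept plus-strand genes.

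**Figure D2:**
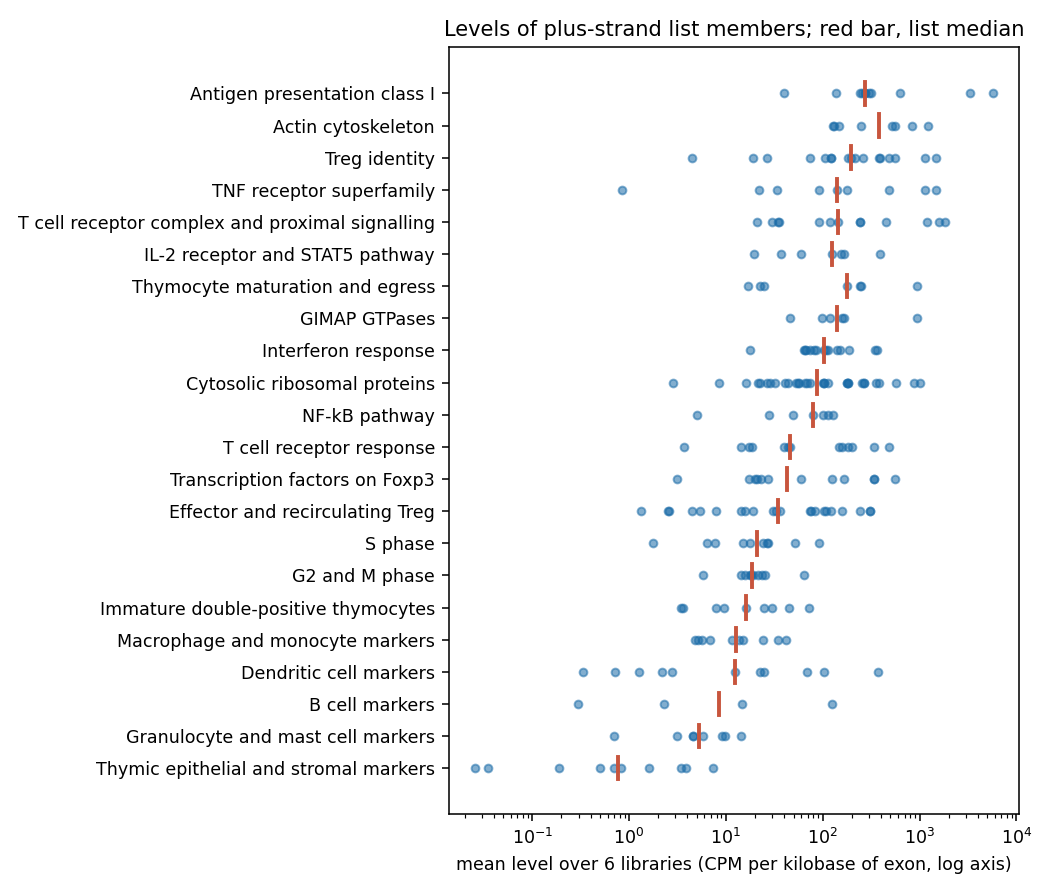
Mean level of each plus-strand list member over the 6 floxed libraries (CPM per kilobase of exon, log axis), 1 line per gene list; red bars mark list medians. Of the lists plotted, those of the actin cytoskeleton, class I presentation and Treg identity have the highest medians, and markers of other cell types lie mostly below 100 CPM per kilobase.

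Across all 5925 plus-strand genes kept, the median CV was 15.1%, with quartiles at 8.89 and 30.1%, while counting error alone would give a median of 3.32%. The CV exceeded the counting error in 5792 of the 5925 genes. It was below 10% in 1826 genes and above 50% in 704, of which 113 were above 100%. Without male floxed library 4 and female floxed library 1 the median CV was 11.1%, and 484 genes exceeded 50%. Spread was smaller at higher levels, from a median CV of 27.5% at 1 to 10 CPM to 16.0% at 10 to 100, 10.3% at 100 to 1000 and 8.88% above 1000 CPM. Counting error had medians of 12.8, 4.16, 1.87 and 0.706% in the same ranges. The median biological CV was 20.9% for these genes and 21.97% for all 9653 genes kept, and since edgeR draws each gene toward the trend it lies above the plain CV for even genes.

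**Figure D3:**
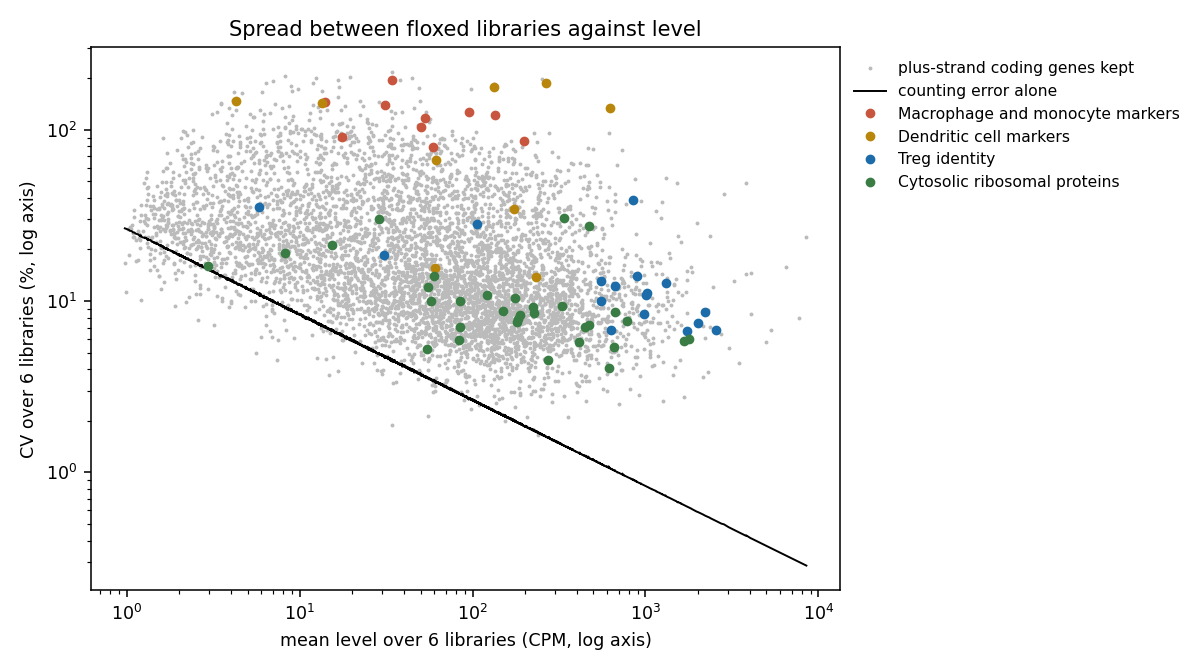
CV of CPM over the 6 floxed libraries (percent, log axis) against mean level (CPM, log axis), 1 point per plus-strand gene kept; the black line is the CV that counting error alone gives. Macrophage and dendritic cell markers lie near the upper edge, and ribosomal proteins and Treg identity genes mostly between 4 and 40%.

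The 15 plus-strand protein-coding genes of smallest biological CV at 50 CPM or more were Lsp1, Sdf4, Atp5a1, Tapbp, Cdc42se1, Cfl1, Tpm3, Ppp2r5c, Cd3d, Uba1, Skap1, Mapre1, Tcf25, Ppp1ca and Pde6h. Their CVs ran from 2.496 to 4.55%. Ppp2r5c, a regulatory subunit of protein phosphatase 2A, had 673, 706 and 719 CPM. Lsp1, a leukocyte actin-binding protein, had 1592, 1676 and 1725 CPM. The adaptor Skap1, which links the T cell receptor to integrins, had 868, 943 and 962 CPM. Cfl1 also stands in the list for the actin cytoskeleton, whose 8 plus-strand genes had a median CV of 7.19%.

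The 15 plus-strand protein-coding genes of largest biological CV at 10 CPM or more shared 5 members with the marker lists of macrophages, dendritic cells and platelets. In 14 of the 15 male floxed library 4 was highest. Pf4, a chemokine of platelets and some macrophages, had 1.51 CPM in the lowest library, a median of 4.15 and 186 in male floxed library 4. Serpinb2, a protease inhibitor of activated macrophages, had 2.12, 9.53 and 227 CPM. Thbs1, the matrix protein thrombospondin 1, had 24.2, 53.5 and 1283 CPM, and coagulation factor V (F5) had 20.5, 34.6 and 637 CPM. H2-Ab1, a class II chain of antigen-presenting cells, had 37.3, 57.6 and 1283 CPM. H2-Eb1, Cd5l, Ccl22, Itgam, Alox5ap, Wfdc17, Mcemp1, Fgfr1 and Itgax completed the group highest in male floxed library 4, at 50.9 to 612 CPM there. Itgad, an integrin of tissue macrophages, had 2.06, 18.9 and 158 CPM and was highest in female floxed library 1. In every one of the 15 the CV was lower without those libraries. That fall was nearly fixed in advance, since genes chosen for large spread lost their highest library. The CV went from 217 to 55.1% for Pf4, from 187 to 38.8% for H2-Ab1 and from 134 to 114% for Itgad.

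Markers of other cell types were also read as lists. These lists were chosen with earlier results of these data known and share members with the genes of largest spread. The macrophage and monocyte list had 10 plus-strand genes, all of them at 1 CPM or more in every library and none at 100 CPM in every library. Its summed level was 108 CPM in male floxed library 1 and had a median of 490 CPM. It reached 1369 CPM in female floxed library 1 and 1504 in male floxed library 4, with female floxed library 3 next at 674. The range was 13.9-fold, and 6.22-fold without female floxed library 1 and male floxed library 4. Csf1r, the receptor for macrophage colony-stimulating factor, had 47.2, 130 and 462 CPM, and Adgre1, which encodes F4/80, had 14.2, 69.3 and 439 CPM. Which macrophage genes were high differed between female floxed library 1 and male floxed library 4. Mrc1, the mannose receptor, had 317 CPM in female floxed library 1 against 18.8 in male floxed library 4, and the scavenger receptor Cd163 had 115 against 8.24 CPM. Itgam went the other way, with 172 CPM in male floxed library 4 against 11.8 in female floxed library 1. Female floxed library 3 had 145 CPM of Mrc1, 40.3 of Cd163 and 8.61 of Itgam.

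Dendritic cell, granulocyte and B cell markers were highest in male floxed library 4. The summed level of 11 plus-strand dendritic cell genes was 4891 CPM there and 690 to 1347 CPM in the other 5, mostly through class II genes such as Cd74, the invariant chain, with 2295 CPM against 182 to 539. That of 8 granulocyte and mast cell genes was 424 CPM there and 16.0 to 63.98 CPM in the others. Mpo, the granule enzyme myeloperoxidase, had 181 CPM there and 0.453 to 3.21 CPM elsewhere, and Elane, neutrophil elastase, had 34.2 CPM there and 0 to 0.136 CPM elsewhere. That of 4 B cell genes ran from 31.8 to 240 CPM. Thymic epithelial and stromal markers stayed between 72.0 and 135 CPM, led by the chemokine Ccl25 at 48.3, 54.5 and 69.8 CPM, with the endothelial gene Cdh5 at 0 to 0.346 CPM. NK and innate-like T markers ran from 206 to 418 CPM, with Ncr1 at 0 in 3 libraries. Of the 5 NK list genes that passed the filter, 3 were highest in male floxed library 2 and 2 in male floxed library 4. Those shares stand against 27.5 and 23.5% of all kept plus-strand genes. Erythroid and platelet markers ran from 19.3 to 192 CPM, and Pf4 alone held 186 of the 192 CPM in male floxed library 4. The ratio of the highest to the lowest library was 7.09 for the dendritic cell list and 1.37 without male floxed library 4 and female floxed library 1. In the same way it went from 26.5 to 2.11 for the granulocyte list, from 7.57 to 2.44 for the B cell list, from 2.04 to 1.21 for the NK list and from 9.98 to 1.93 for the erythroid and platelet list, and it was 1.87 both ways for the epithelial and stromal list, which was highest in male floxed library 1. Male floxed library 4 was the lowest library for 6 of the 17 Treg identity genes, Foxp3, Ctla4, Tnfrsf18, Tnfrsf9, Gpr83 and Swap70, against 20.7% of all kept plus-strand genes. It was the highest for 3 of them, Capg, Itgae and Ebi3, against 23.5%. The part of the other cell types' transcripts in those values was not tested.

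**Figure D4:**
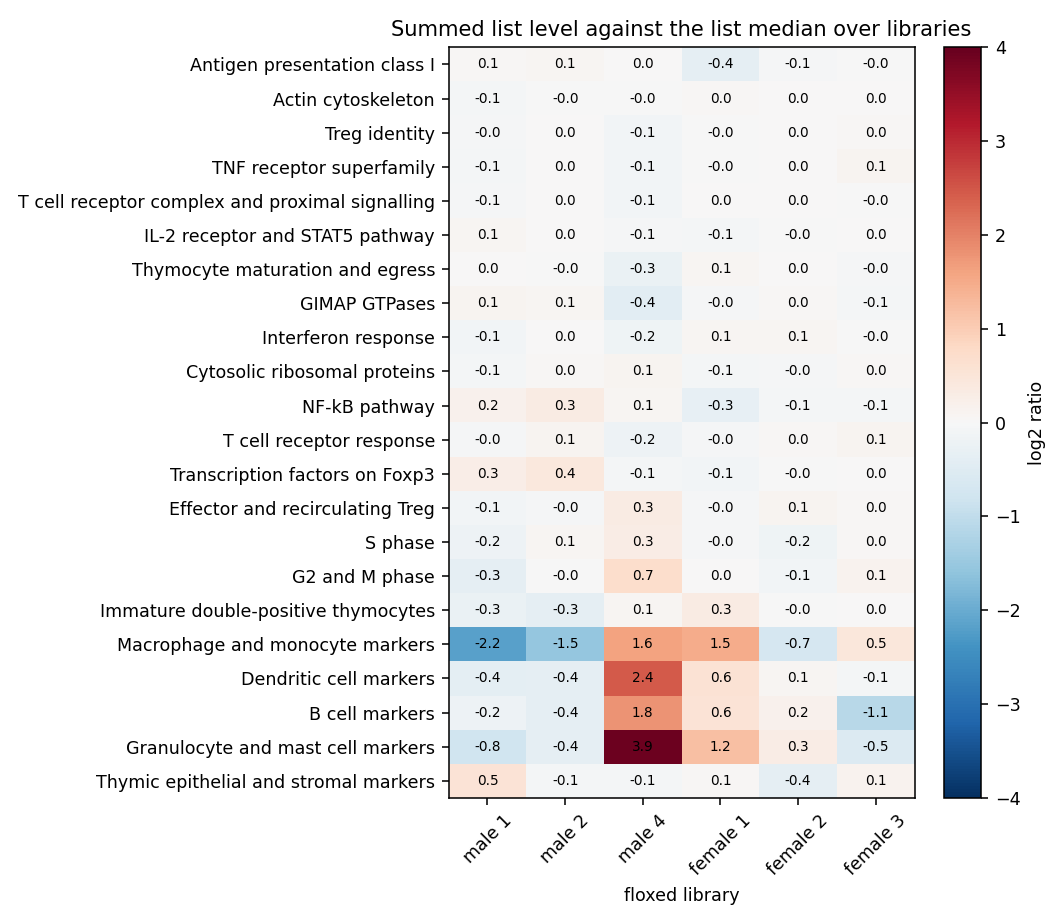
Summed CPM of the plus-strand members of each gene list in each floxed library, as the log2 ratio to the list's median over the 6 libraries (colour and printed value). Lists of T cell and housekeeping genes stay near 0, and macrophage, dendritic cell, B cell and granulocyte lists are highest in male floxed library 4.

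Principal components over all kept genes showed in which directions the libraries differed most. Of the variance in log2 CPM, 57.8% lay on the leading principal component, with male floxed library 2 at one end and female floxed library 1 at the other, and 25.5% lay on the next, which set male floxed library 4 apart. At the end of male floxed library 2 lay Rsrp1, which encodes an arginine and serine rich protein, Jund, a subunit of AP-1, the histone genes H2afj and H2afx, and the repressor partner Irf2bp1. At the other end lay the macrophage genes Itgad, Cd163, Mrc1 and Mertk. Jund had 125 CPM in male floxed library 2 against 7.78 to 29.6 CPM in the others, Klf2, a factor of T cell egress, had 78.3 against 18.4 to 26.0, and Eif3f, a translation initiation subunit, had 216 against 21.9 to 72.5. Fyn and Egr1 above were highest in the same library.

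Counts of deviating genes also set male floxed libraries 1 and 2 against female floxed library 1. Of 2301 plus-strand genes with at least 100 CPM on average, 269 in male floxed library 2 and 181 in male floxed library 1 were more than 1.5-fold above the median of the other 5 libraries, and 398 in female floxed library 1 were more than 1.5-fold below it. Female floxed libraries 2 and 3 deviated least, with 4 and 6 genes above and 42 and 43 below. Across genes, which are not independent replicates, the Spearman correlation between a library's deviations and the GC content of the gene, over 9653 kept genes, ran from -0.27 in female floxed library 2 to 0.34 in male floxed library 4. Whether GC content plays a part in the deviations was not tested. Spearman correlations between libraries were 0.935 to 0.992, lowest for male floxed library 2 with female floxed library 1.

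**Figure D5:**
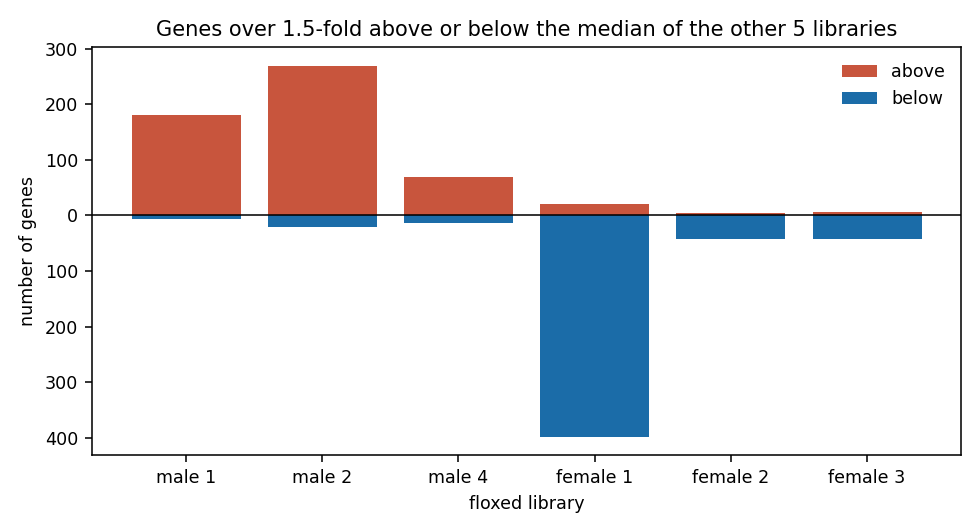
Number of plus-strand genes (of 2301 with at least 100 CPM on average) that lay more than 1.5-fold above (upward bars) or below (downward bars) the median of the other 5 libraries, for each floxed library. Male floxed libraries 1 and 2 deviate mostly upward and female floxed library 1 mostly downward.

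Promoter windows of the evenest and the least even genes are described by their CG content, which neither group was chosen by and which was not tested. The windows of Cfl1 (chr19:5490355-5490454) and Cdc42se1 (chr3:95228324-95228423) are shown as examples of even genes. That of Mrc1 (chr2:14229314-14229413) is shown for a gene of uneven level that is not among the 15 of largest spread. All are as above with CG in capitals and from RefSeq on build GRCm38.p6.
Cfl1: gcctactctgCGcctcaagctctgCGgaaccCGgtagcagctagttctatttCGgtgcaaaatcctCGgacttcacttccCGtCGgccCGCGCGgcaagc
Cdc42se1: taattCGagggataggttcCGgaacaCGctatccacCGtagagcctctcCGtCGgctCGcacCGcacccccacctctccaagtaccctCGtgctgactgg
Mrc1: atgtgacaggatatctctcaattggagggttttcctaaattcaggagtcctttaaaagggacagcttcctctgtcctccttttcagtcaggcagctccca
These hold 10, 9 and 0 CG dinucleotides. Of the 15 genes of smallest spread, 11 had a window, with a median of 9 CG, a lowest count of 0 and 3 windows at 3 or fewer. Of the 15 of largest spread, 10 had a window, with a median of 0 CG, and all 10 were at 3 or fewer, against 19.9% of the 4739 windows of kept genes. Over the 100 genes of largest spread the contrast was smaller, with a median of 3 CG, up to 16, and 41 of 68 windows at 3 or fewer. Low CG content did not go with large spread in every group: the interferon response list had a median of 1 CG with 9 of 12 windows at 3 or fewer, and a median CV of 8.44%. Markers of Treg identity had a median of 4 CG over 13 windows. These counts describe letters in the windows and say nothing of methylation or factor binding.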

How the data were processed

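The authors deposited raw counts of reads for each gene symbol, without normalization. Their processing notes name HTSeq 0.6.1p1, STAR 2.3.0e, STAR 2.5.2b, CASAVA and the genome build mm9. The role of each tool, the annotation and the strand setting are not given in the sources used here. Libraries were made from total RNA with a SMARTer Stranded kit, per the labels' protocols. Summary entries (44.5 to 46.9% of reads without a feature) were left out.

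Counts were scaled by TMM in edgeR 4.0.16 (R 4.3.3) to CPM and divided by merged exon length for CPM/kb. Strand, type and length came from GENCODE M21 by symbol (54586 of 55453 genes), which is on a later build than mm9. filterByExpr with the 6 libraries as 1 group kept 9653 of 27108 genes with reads. It asks for reads in all 6 libraries, so 7 plus-strand genes with a mean of at least 10 CPM, such as Mpo, got no biological CV. Biological CVs came from estimateDisp (robust, tagwise), tested on simulated data of known spread, where it gave even genes a value above the simulated one. Whether its ranking of genes holds where single libraries carry much of the spread was not tested. Marker pairs were compared by an exact sign-flip permutation test in Python 3.11.15.

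Named genes were the 5 markers, the 25 highest per length (1 of them is not reported here), the 15 largest and 15 smallest biological CVs, and for each list up to 6 highest members and the 2 of largest biological CV. Capg, Gpr83, Nrp1, Nt5e, Entpd1, Cxcr6, Rtp4, Plcg1, Swap70, Itgae, Ebi3, Cdh5, Ncr1 and the genes named at the ends of the principal components were chosen after their values were seen. The members and the 35 gene lists were chosen with earlier results of these data known. Promoter windows came from RefSeq by symbol. Alternatives were RLE and total-count scaling, other filters, 1 mean per label group, no shrinkage, DESeq2 1.42.0, other length scales, libraries of 1 label group, and each library left out. Leaving out male floxed library 4 and female floxed library 1 together was added after the data were seen.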

Additional observations from a re-analysis of the deposited data

Results flagged for a closer look

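For each value printed for a gene or summed over a list, the highest and lowest of the 6 libraries were compared with the rest: a library was singled out where its gap to the nearest other library took up more of the whole range than Dixon's 95% limit for 6 values allows. Chance singles out about 1 in 20 such groups, and here 49 of 169 values had such a library. Many of these genes were chosen for their large spread, so that rate is no measure for them. Over all 5925 kept plus-strand genes, 937 or 15.8% had such a library. Of the 49 printed values, male floxed library 4 was the one singled out in 31, 29 times as the highest and 2 times as the lowest.

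The low values of male floxed library 4 were those of Foxp3 (2217 CPM, others 2543 to 2663) and Gimap4 (1239 CPM). Its high values were those of Pf4 (186 CPM), Serpinb2 (227), Alox5ap (101), Wfdc17 (83.3), Mcemp1 (62.8), Thbs1 (1283), Itgam (172), Ccl22 (190), Cd5l (222), H2-Ab1 (1283), Fgfr1 (57.5), H2-Eb1 (612), F5 (637), Itgax (50.9), Cd74 (2295), Mpo (181) and Elane (34.2 CPM). Summed levels were likewise highest there for dendritic cell markers (4891 CPM), granulocyte and mast cell markers (424 CPM) and B cell markers (240 CPM, with Cd79a at 37.5). So were those of NK and innate-like T markers (418 CPM) and erythroid and platelet markers (192 CPM, of which Pf4 alone held 186). Of the 5 NK list genes that passed the filter, 3 were highest in male floxed library 2 and 2 in male floxed library 4. Outside the markers of other cell types it was highest for the mitotic genes Ube2c (104 CPM) and Plk1 (91.7 CPM), the summed G2 and M list (1253 CPM), Ccr6 (281 CPM), S100a10 (460 CPM) and Tnfrsf10b (6.51 CPM).

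Female floxed library 1 was lowest for H2-D1 (4625 CPM, others 8351 or more), Atp5b (1223 CPM), Ptprcap (781 CPM), Nt5e (551 CPM), Tnfrsf13b (161 CPM) and Tnfrsf25 (324 CPM), and for the summed class I list (18389 CPM) and nuclear respiratory chain list (5361 CPM). It was highest for Cd163 (115 CPM), Cish (1110 CPM) and Ccl25 (69.8 CPM). Male floxed library 2 was highest for Fyn (413 CPM), Egr1 (440 CPM), Plcg1 (487 CPM), Eif3f (216 CPM), Jund (125 CPM) and Klf2 (78.3 CPM). Male floxed library 1 was lowest for Ccr8 (307 CPM). No value singled out female floxed libraries 2 or 3.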

How the results depend on the processing

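The number of genes at 1 CPM or more in every library, the share of counts in the 100 highest genes and the number of marker pairs in one order stayed within 1.5 times or the spread between libraries under every alternative run. The median biological CV over all kept genes, 21.97%, did not. It was 48.3% with no filter on low counts, 20.0% with 1 mean per label group, 14.9% without shrinkage, 14.8% and 19.0% with DESeq2 gene-wise and shrunken estimates, 16.8% in the female and 25.3% in the male libraries alone, and 19.2% without male floxed library 4 and female floxed library 1. Leaving out each library in turn gave 20.6 to 24.5%. Without length, 4 of the marker pairs stood in the other order. Leaving out 1 library leaves 5, where the smallest exact permutation p is 0.0625. Of the values for single markers and lists, 276 stayed within the spread and 202 moved. No paired analysis was possible because the libraries form 1 condition and no groups were compared. Depth was between 12940588 and 16154017 counts, so values near 1 CPM rest on few reads. Minus-strand genes could not be read for level.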
